A study of Mus musculus with 8 samples.

Results

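The mouse miRNA miR-21a was examined through its 2 mature products, mmu-miR-21a-5p and mmu-miR-21a-3p, which are 2 of the 1881 miRNAs on the array. They were chosen by name, and they carry 6 of the 4415 miRNA probes, 2 for the 5p arm and 4 for the 3p arm. The series compared skin of 4 NcstnΔKC and 4 normal samples, each on 1 single-colour array. All mice were males with floxed Ncstn alleles and a Krt14 CreER transgene (Ncstn flx/flx; Krt14 CreER+/-), so the controls carried the same alleles. Nicastrin, the Ncstn product, is part of γ-secretase, the protease that releases the active domain of Notch. CreER is a recombinase switched on by tamoxifen, and the Krt14 promoter drives it in basal keratinocytes. The NcstnΔKC mice were gavaged with tamoxifen from an age of 8 weeks, receiving 20 mg/kg daily on 5 days and later 1 dose every 10 days. The normal mice were given corn oil. Tissue was taken at 16 weeks, and the submitters describe it as lesions. Tamoxifen and loss of Ncstn came together in 1 group, so their effects cannot be told apart, and a miRNA array does not measure Ncstn mRNA. Whether each sample is a different mouse is not in the labels, so p-values reflect only the scatter among samples, part of which may be technical.

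A miRNA gene is transcribed into a long RNA that contains a hairpin, and the Drosha and Dicer nucleases cut the hairpin into a short duplex. One strand, the guide, is loaded into an Argonaute protein and pairs with target mRNAs mainly through its seed, bases 2 to 8, while the other strand is mostly degraded. In miR-21 the 5p arm is the usual guide and the 3p arm the passenger strand. miR-21-5p is known for its target Pdcd4, and for its abundance in inflamed, wounded and proliferating skin.

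The hairpin shows which stretches the probes had to distinguish. In RefSeq's GRCm38.p6 annotation Mir21a lies on the minus strand of chromosome 11, at chr11:86584067-86584158, within the span of the gene Vmp1. Its 92 bases are printed with the mature arms in capitals, the 5p arm at bases 18 to 39 and the 3p arm at bases 56 to 77.
Mir21a hairpin: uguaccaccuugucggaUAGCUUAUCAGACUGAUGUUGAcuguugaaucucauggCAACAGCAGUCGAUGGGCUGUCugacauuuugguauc

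The mature sequences of miR-21a and its nearest relatives on the array follow, with the seed in capitals. miR-21c has the same seed as miR-21a-5p, whereas miR-21b differs from it within the seed by C4U, counted from 1 at the 5′ end of miR-21a-5p. Both also differ in the 3′ part of the molecule.
miR-21a-5p: uAGCUUAUcagacugauguuga
miR-21a-3p: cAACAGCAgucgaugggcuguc
miR-21b: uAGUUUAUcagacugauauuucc
miR-21c: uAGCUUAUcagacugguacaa

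The array probes are complementary to the 3′ part of each miRNA and start at its last base. The capitals mark the bases that pair with the seed. The 5p probes pair with bases 3 to 22 and 4 to 22 and so cover 6 and 5 seed bases. The 3p probes are far shorter, and only the longest of them reaches the seed, with 1 base.
miR-21a-5p, 20-base probe: tcaacatcagtctgATAAGC
miR-21a-5p, 19-base probe: tcaacatcagtctgATAAG
miR-21a-3p, 12-base probe: gacagcccatcg
miR-21a-3p, 13-base probe: gacagcccatcga
miR-21a-3p, 14-base probe: gacagcccatcgac
miR-21a-3p, 15-base probe: gacagcccatcgacT

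The design sets NcstnΔKC against normal skin to find miRNAs that differ. Each array had 58594 spots, and none of its miRNA spots was saturated. Detected miRNAs numbered 198 to 238 on NcstnΔKC arrays and 235 to 273 on normal arrays. The levels below are log2 of the summed intensity of a miRNA's probes after division by the array's 75th percentile over 301 probes detected on all 8 arrays. That percentile was 1053 ± 98.3 on NcstnΔKC arrays and 1259 ± 44.6 on normal arrays (SD, n = 4 each). Probes with 50% or more of their spots well above background were taken as detected. The 222 miRNAs detected on all 4 arrays of a group were tested, and 95 of them passed a limma adjusted p of 0.05 (42.8%), 33 higher (14.9%) and 62 lower (27.9%) in NcstnΔKC skin. The number higher and lower moved with the scaling, to 36 and 32 under quantile normalization, 41 and 30 under cyclic loess, 24 and 101 with no scaling, 18 and 91 under spike-in scaling, and 12 and 0 under a percentile over all probes. The median difference of the 222 was -0.23 on the log2 scale, and these scalings set it between -0.54 and 0.64. The miRNAs that define keratinocytes here, miR-203-3p and miR-205-5p, were detected on all 8 arrays. All arrays lay on 1 slide, the NcstnΔKC arrays in its row 1 and the normal arrays in its row 2, and the effects of row and group cannot be told apart.

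miR-21a-5p was 5.70-fold higher in NcstnΔKC skin. Its level was 4.30, 5.05, 5.15 and 5.09 on NcstnΔKC arrays 1 to 4, against 2.29, 2.72, 2.18 and 2.36 on normal arrays 1 to 4 (log2 of the scaled intensity). The lowest NcstnΔKC array, number 1, lay above the highest normal array, number 2. The groups did not overlap, which was so for 36.9% of the tested miRNAs in either direction and for 13.5% with NcstnΔKC higher. The difference was 2.51 ± 0.23 on the log2 scale (SE, n = 4 each, limma adjusted p = 0.000477), or 2.75 relative to the median of all tested miRNAs. Its adjusted p was the smallest of the 222, and its difference ranked 2 among them. In bulk skin, more cells that hold the miRNA and more of it per cell cannot be told apart.

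The groups were also separate before scaling, by a smaller difference. The summed processed intensity was 22795, 30578, 37711 and 36390 on NcstnΔKC arrays, against 6227, 8004, 5563 and 6724 on normal arrays. The lowest NcstnΔKC array was thus well above the brightest normal array. With no scaling the difference was 2.25, and over the 7 scalings, the one used here included, it lay between 2.21 and 3.38 and ranked 2 or 3 among the tested miRNAs. Relative to the median of all tested miRNAs it was 2.75 with no scaling and with every scaling that divides an array by a single number. Such a division shifts all miRNAs of an array alike, so it cannot change this value. Quantile normalization gave 2.56 and cyclic loess 2.67.

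Both 5p probes gave the difference. The 20-base probe read 17134, 22977, 28142 and 27216 on NcstnΔKC arrays, against 4837, 6239, 4370 and 5216 on normal arrays (processed intensity, mean of its spots). It was 5.48-fold higher in NcstnΔKC skin, a log2 difference of 2.46 ± 0.22 (SE, limma over 395 probes, adjusted p = 0.000431). The 19-base probe read 5661, 7601, 9569 and 9174 on NcstnΔKC arrays, against 1391, 1765, 1193 and 1508 on normal arrays. It was 6.48-fold higher in NcstnΔKC skin, a log2 difference of 2.70 ± 0.23 (adjusted p = 0.000431). Of the 395 probes tested, 37.2% passed in either direction and 14.9% with NcstnΔKC higher. Each probe had 13 to 15 usable spots per array, with a coefficient of variation among them of 2.70% to 11.4% (median 5.58%), so the spread among spots was far below the difference between groups.

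**Figure D1:**
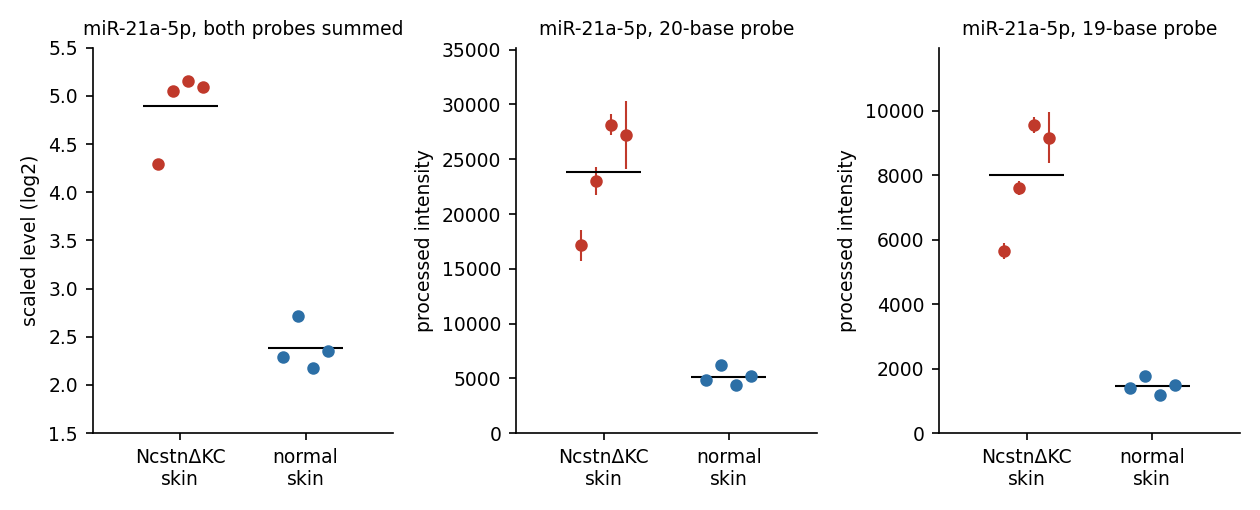
Level of miR-21a-5p on each array, as log2 of the scaled sum of its probes (left), and processed intensity of its 20-base probe (middle) and 19-base probe (right). Points are arrays 1 to 4 of each group from left to right, horizontal lines are group means, and vertical bars are the SD over the spots of a probe, where larger than the point. The NcstnΔKC arrays lie at 4.30 to 5.15 and the normal arrays at 2.18 to 2.72, and NcstnΔKC 1 is the lowest of its group in all 3 panels.

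The probes differed in the size of the change. The ratio of the 20-base to the 19-base probe was 3.03, 3.02, 2.94 and 2.97 on NcstnΔKC arrays, against 3.48, 3.54, 3.66 and 3.46 on normal arrays. All NcstnΔKC arrays lay below all normal arrays, with a difference of -0.24 in the log2 ratio (exact two-sided permutation p = 0.0286, the smallest that 4 against 4 arrays allow, and 0.0494 after Benjamini-Hochberg adjustment over 19 single measures). These 19 measures overlap, since they include the ratio and its log2, and sums along with their own probes. An adjusted p of 0.0494, here and below, depends on that choice of measures and is not firm evidence of passing 0.05. The same ratio was formed for 125 miRNAs that have exactly 2 probes detected on all 8 arrays. In 28 of them (22.4%) the groups did not overlap in either direction, and the size of the difference of miR-21a-5p ranked 5 among the 125, whose median was 0.043. The probes share 19 bases and differ by the last base of the longer one, which pairs with base 3 of the miRNA.

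miR-21a-5p also held more of the array's signal. It gave 4.31, 6.98, 7.84 and 7.42% of the summed intensity of all detected miRNAs on NcstnΔKC arrays, against 1.18, 1.36, 0.896 and 1.05% on normal arrays. The means were 6.64 ± 1.59% in NcstnΔKC skin and 1.12 ± 0.20% in normal skin (SD, n = 4 each), and the groups did not overlap (exact permutation p = 0.0286, adjusted 0.0494). This share does not depend on the scaling. The summed intensity of the other detected miRNAs was lower in NcstnΔKC skin, at 452689 ± 40943 against 588263 ± 50032 in normal skin (SD, n = 4 each), also without overlap (exact permutation p = 0.0286).

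**Figure D2:**
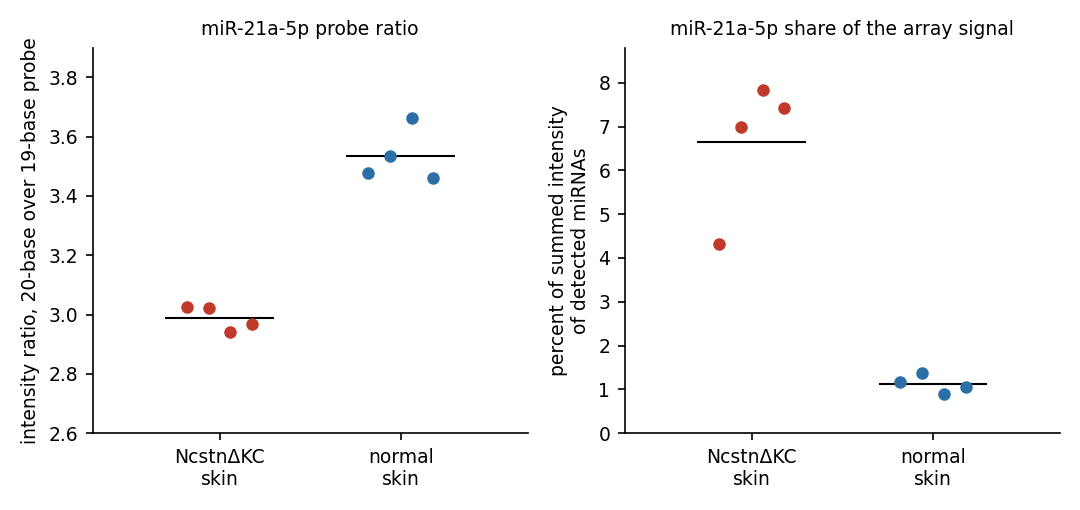
Ratio of the processed intensities of the 2 probes of miR-21a-5p (left) and the percentage of the summed intensity of detected miRNAs that came from miR-21a-5p (right). Points are arrays 1 to 4 of each group from left to right and lines are group means. The ratio axis does not start at 0, and the NcstnΔKC arrays lie at 2.94 to 3.03 against 3.46 to 3.66 for the normal arrays.

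The 3p arm was near the background of the array. It was detected on 1 of 4 NcstnΔKC arrays and on 0 of 4 normal arrays, through its 15-base probe alone, with 4 of 6 spots well above background on NcstnΔKC 4. It therefore did not enter the fit over the 222 miRNAs. The scanner software applies its own rule and listed it as detected on 2 of 4 NcstnΔKC arrays, numbers 3 and 4, and on 0 of 4 normal arrays. After the floor for dim values, 7 of the 8 arrays had the same level and the exact permutation test gave p = 1. No fold is given for this arm.

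Unlogged intensities could still be compared, a choice made after the data were seen. The 4 probes of miR-21a-3p summed to -21.8, -10.8, 17.8 and 52.1 on NcstnΔKC arrays, against -63.8, -51.9, -65.5 and -66.9 on normal arrays, where a negative value lies under the fitted background. The means were 9.30 ± 33.1 in NcstnΔKC skin and -62.0 ± 6.86 in normal skin (SD, n = 4 each). The groups did not overlap (exact permutation p = 0.0286, adjusted 0.0494), but the exact p was 0.0571 once normal 1, normal 3 or normal 4 was left out. NcstnΔKC 3 and 4 were the highest arrays, and NcstnΔKC 1 the lowest of its group, as it was for the 5p arm.

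The separation came from the longer probes. The 15-base probe read 8.84, 14.3, 32.8 and 44.0 on NcstnΔKC arrays, against -14.7, -9.94, -11.2 and -15.1 on normal arrays. The 14-base probe read 0.470, 5.62, 17.7 and 29.1 on NcstnΔKC arrays, against -10.3, -8.88, -13.5 and -16.1 on normal arrays. In both probes all NcstnΔKC values were positive and all normal values negative (exact permutation p = 0.0286 each, adjusted 0.0494 over the 19 measures and 0.0571 over these 4 probes). The 13-base probe averaged -8.83 ± 2.72 in NcstnΔKC skin and -13.9 ± 2.34 in normal skin, with overlap (exact permutation p = 0.0571). The 12-base probe averaged -20.1 ± 3.99 in NcstnΔKC skin and -23.2 ± 1.12 in normal skin, also with overlap (exact permutation p = 0.229). Among 3874 probes of the array that were detected on no normal array, 27 (0.697%) had NcstnΔKC values all above the normal ones, and 45 (1.16%) had them after scaling. The mean difference was largest in the 15-base probe, at 37.7 intensity units.

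**Figure D3:**
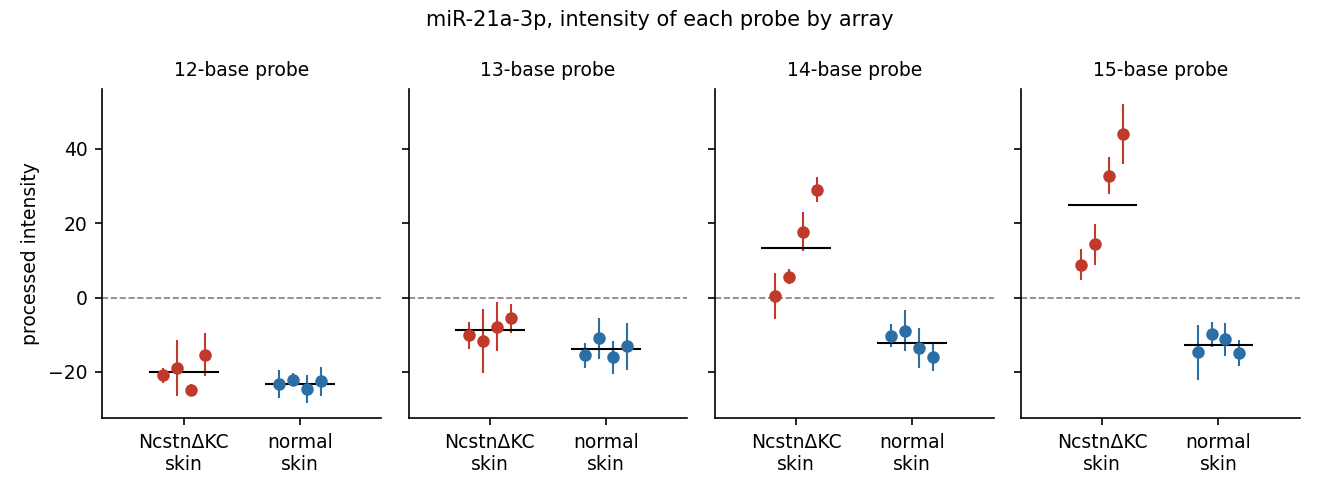
Processed intensity of the 12-, 13-, 14- and 15-base probes of miR-21a-3p on each array, on 1 linear axis. Points are arrays 1 to 4 of each group from left to right, vertical bars are the SD over the spots of the probe, horizontal lines are group means, and the dashed line at 0 is the fitted background. In the 14- and 15-base probes the NcstnΔKC arrays lie above 0 and the normal arrays below it.

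The deposited series matrix, the submitters' own log2 values of these arrays, was read as a second source for both arms. For miR-21a-5p it holds 13.15, 13.81, 14.02 and 14.05 for NcstnΔKC arrays, against 11.19, 11.48, 10.98 and 11.19 for normal arrays. The difference was 2.55 ± 0.22 (SE, limma over 1881 miRNAs, adjusted p = 0.00243). For miR-21a-3p it holds 3.32, 3.41, 3.56 and 3.63 for NcstnΔKC arrays, against 3.16, 3.16, 3.14 and 3.13 for normal arrays. These lie close to the column medians of 3.24 to 3.25, and the difference was 0.33 ± 0.06 (SE, limma adjusted p = 0.0417) with no overlap. Of the 1881 miRNAs in the matrix, 2.18% were higher in NcstnΔKC skin past the adjusted p of 0.05, and 8.4% had NcstnΔKC values all above the normal ones. The sources used here do not give the normalization of the matrix, so its scale near the median cannot be set against the background of the scanner files.

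The relatives of miR-21a were not seen. miR-21b, miR-21c and miR-590-5p, another miRNA of the miR-21 seed family, were each detected on 0 of 8 arrays. The probes of miR-21b and miR-21c share a run of 12 to 13 bases with the complement of miR-21a-5p, in capitals below, and their values are given because a bright miRNA can also bind similar probes.
miR-21b, 20-base probe: ggaaatATCAGTCTGATAAa
miR-21c, 19-base probe: ttgtacCAGTCTGATAAGC

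The summed intensity of miR-21b was 39.7, 39.1, 29.3 and 40.5 on NcstnΔKC arrays, against 35.4, 42.8, 36.9 and 41.9 on normal arrays (exact permutation p = 0.629). That of miR-21c averaged -8.40 ± 5.36 in NcstnΔKC skin and -7.99 ± 2.78 in normal skin (SD, n = 4 each, exact permutation p = 0.914). That of miR-590-5p lay between 1.35 and 13.8 on NcstnΔKC arrays and between 4.25 and 19.6 on normal arrays (exact permutation p = 0.0857). None of the 3 passed the threshold, and in each the groups overlapped.

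miR-21a belongs to a group of miRNAs known to be induced in inflammation, and 20 of these were on the array. Only 6 could be tested, since 11 were detected on no array. Of the 6, 3 were higher in NcstnΔKC skin and 0 lower, where 14.9% of all tested miRNAs were higher. Their median difference was 1.20 against -0.23 over all tested. The count and the median both include miR-21a-5p itself. miR-146b-5p, known as a brake on NF-κB signalling, had levels of -1.76, -0.81, -0.86 and -0.86 on NcstnΔKC arrays, against -2.91, -3.19, -2.59 and -2.15 on normal arrays. It was 3.11-fold higher (log2 difference 1.64 ± 0.29 SE, limma adjusted p = 0.00402). miR-155-5p, known from activated lymphocytes and macrophages, had levels of -3.06, -2.60, -2.59 and -2.42 on NcstnΔKC arrays, against -4.43, -3.59, -3.72 and -3.95 on normal arrays. It was 2.39-fold higher (1.26 ± 0.22, adjusted p = 0.00402). In the scanner software's totals its difference was -1.12 with an adjusted p of 0.156.

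The other 3 tested members did not pass. miR-223-3p, a miRNA of neutrophils and other myeloid cells, had a difference of 1.15 ± 0.44 (SE, limma adjusted p = 0.0644), with levels of 0.70, 1.07, 2.37 and 2.75 on NcstnΔKC arrays and 0.37 to 0.83 on normal arrays. miR-146a-5p, which shares its seed with miR-146b-5p, had a difference of -1.08 ± 0.52 (adjusted p = 0.131). Its level was -1.27 on NcstnΔKC 1 and -3.42 to -3.12 on the other NcstnΔKC arrays, against -2.52 to -1.01 on normal arrays. miR-212-3p had a difference of 0.65 ± 0.34 (adjusted p = 0.157). Without NcstnΔKC 1, miR-223-3p passed at 1.49 (adjusted p = 0.0176) and miR-146a-5p at -1.59 (adjusted p = 0.0101), and without normal 2, miR-212-3p passed at 0.97 (adjusted p = 0.0156).

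A second list held 16 miRNAs known from hyperplastic or psoriasis-like skin, 12 of them tested and several shared with the first list. In NcstnΔKC skin 3 were higher and 3 lower, against 14.9% higher and 27.9% lower of all tested miRNAs, and the median difference was -0.30 against -0.23 over all tested. Besides miR-21a-5p and miR-155-5p, miR-142a-3p, a miRNA of blood cells, was 2.86-fold higher (log2 difference 1.52 ± 0.33 SE, limma adjusted p = 0.00792). Lower were miR-203-3p, which restrains proliferation of keratinocytes, with a difference of -0.68 ± 0.17 (adjusted p = 0.0139), miR-99a-5p with -0.72 ± 0.16 (adjusted p = 0.00972) and miR-125b-5p with -0.53 ± 0.14 (adjusted p = 0.0203). Without NcstnΔKC 3, miR-203-3p (adjusted p = 0.0524) and miR-125b-5p (adjusted p = 0.0689) did not pass, nor did miR-125b-5p without NcstnΔKC 4 or normal 4. Under a percentile over all probes these 3 turned positive, at 0.19, 0.15 and 0.34. Among those that did not pass, miR-205-5p, a keratinocyte miRNA, had a difference of 0.47 ± 0.17 (adjusted p = 0.0518, or 0.0276 without NcstnΔKC 1), and miR-378a-3p one of -0.69 ± 0.27 (adjusted p = 0.0659, or 0.0101 without normal 1). miR-31-5p, often named beside miR-21 in hyperplastic skin, was detected on 3 NcstnΔKC arrays and 1 normal array and was not tested. Its highest level was on that normal array, number 2, at -1.08, against -4.59 to -3.47 on NcstnΔKC arrays. Normal 1 and normal 3 were at the floor of -4.97 and normal 4 at -4.55.

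**Figure D4:**
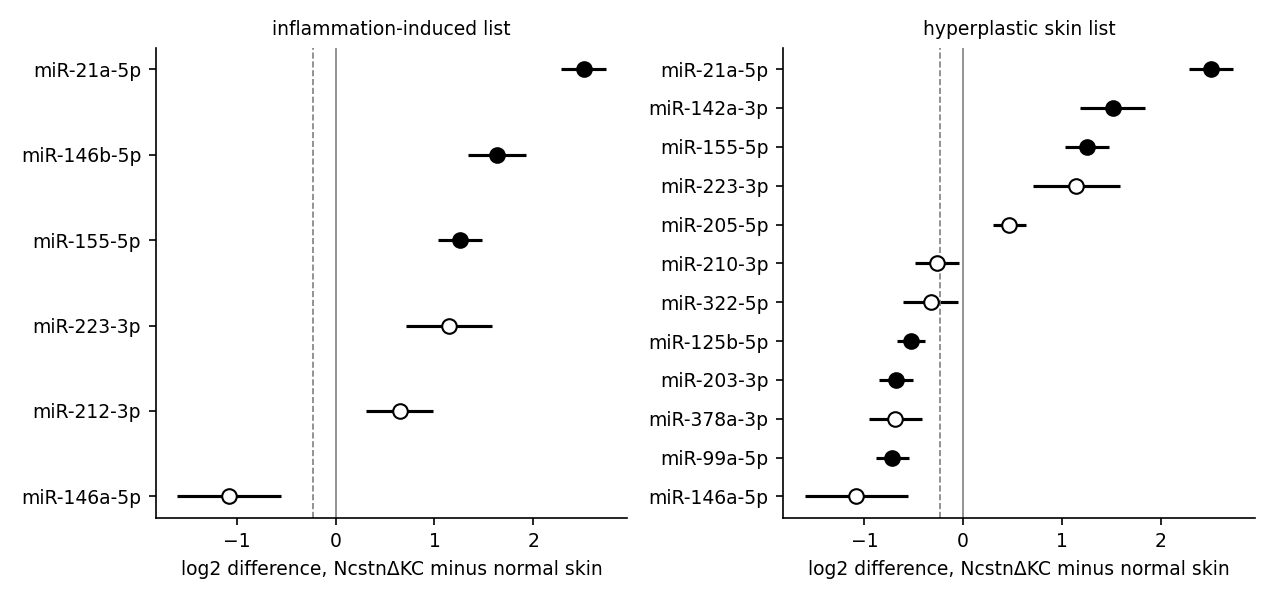
Log2 difference of NcstnΔKC minus normal skin for the tested members of the inflammation-induced list (left, 6 miRNAs) and of the hyperplastic skin list (right, 12 miRNAs). Bars are the SE of the limma fit, filled points passed an adjusted p of 0.05, open points did not, the solid line is 0 and the dashed line is the median of all 222 tested miRNAs, at -0.23. miR-21a-5p, at 2.51, has the largest difference in both lists.

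Profiles over the arrays were compared with that of miR-21a-5p, each centred on its own mean, over 203 tested miRNAs with no value at the floor. The distance is the root mean square difference in log2 units, and the values are a description without a test. miR-511-3p, whose hairpin lies in the macrophage gene Mrc1, was nearest at 0.263, and then came miR-1949 at 0.430, miR-362-3p at 0.554, miR-146b-5p at 0.580 and miR-532-5p at 0.619, where the median miRNA lay at 1.41. miR-511-3p had levels of -1.95, -0.54, -0.42 and -0.42 on NcstnΔKC arrays, against -3.59, -2.84, -3.26 and -3.05 on normal arrays. It had its lowest NcstnΔKC level on the same array as miR-21a-5p, number 1, and was 5.11-fold higher in NcstnΔKC skin (limma adjusted p = 0.00238). Selection by profile favours both likenesses.

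This distance is governed by the difference between groups, so it was repeated after each group was centred on its own mean. The nearest were then miR-362-3p at 0.0726, miR-1949 at 0.104, miR-20a-5p at 0.109, miR-20b-5p at 0.150 and miR-532-5p at 0.159, where the median was 0.391. miR-20a-5p and miR-20b-5p belong to the clusters around miR-17 and miR-106a, which are known from proliferating cells. miR-362-3p had levels of -2.58, -1.61, -1.75 and -1.76 on NcstnΔKC arrays, against -3.37, -3.05, -3.53 and -3.40 on normal arrays. Like miR-21a-5p, it was lowest on NcstnΔKC 1 within its group and highest on normal 2 among the normal arrays. It was picked for the nearest profile, and that choice favours such a match. miR-362-3p, miR-1949 and miR-532-5p stood in both lists of 5, and all 8 points of each come from the same arrays and scaling.

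**Figure D5:**
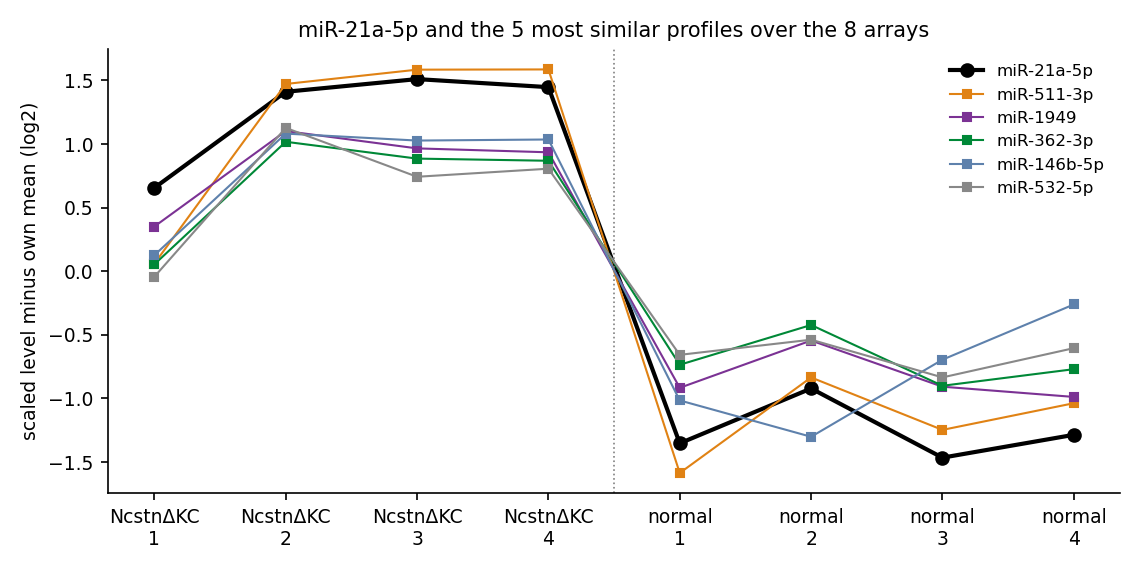
Level on each array minus the miRNA's own mean over the 8 arrays (log2), for miR-21a-5p (thick line) and the 5 miRNAs with the smallest root mean square difference from it. Arrays run from NcstnΔKC 1 to 4 and then normal 1 to 4, parted by the dotted line. All 6 profiles are high on NcstnΔKC 2, 3 and 4, lower on NcstnΔKC 1 and lowest in normal skin.

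Among the lists of markers for other cells, the sums of scaled levels for white blood cells and for fibroblasts and smooth muscle did not overlap between the groups. Those for striated muscle, epithelium, endothelium and red cells overlapped. Of single tested miRNAs 36.9% did not overlap, in either direction. The divisor of the scaling was lower on NcstnΔKC arrays, at 1053 against 1259 on normal arrays. Before that division the sums for white blood cells and for fibroblasts and smooth muscle overlapped too. The 11 miRNAs listed for white blood cells summed to a scaled level of 3.22, 4.00, 7.68 and 9.49 on NcstnΔKC arrays, against 2.24 to 3.05 on normal arrays. Of that sum miR-223-3p, which did not pass, gave 1.62, 2.10, 5.19 and 6.72 on NcstnΔKC arrays and 1.30 to 1.78 on normal arrays. Without it, a check chosen after the data were seen, the sum was 1.60 to 2.77 on NcstnΔKC and 0.94 to 1.27 on normal arrays, still without overlap. Of the 7 tested (where 14.9% of all tested miRNAs were higher and 27.9% lower), 2 were higher, miR-511-3p and miR-142a-3p. Only 1 was lower, miR-181b-5p, a choice of name made after its value was seen. It was detected on 0 of 4 NcstnΔKC and 4 of 4 normal arrays, and the groups overlapped. It thus entered the fit only through normal skin, where it was higher. Of the 11, 3 were detected on no array. miR-150-5p (0.89, adjusted p = 0.0653), miR-342-3p (-0.00016, adjusted p = 0.999) and miR-181a-5p (-0.30, adjusted p = 0.155) did not pass. NcstnΔKC 3 and 4, the highest arrays in this sum, were also the highest in the intensity of miR-21a-3p. The 5 miRNAs of striated muscle summed to 38.6, 6.43, 13.0 and 13.2 on NcstnΔKC arrays, against 17.6, 50.9, 84.6 and 68.4 on normal arrays, so that NcstnΔKC 1, the array with the least miR-21a-5p of its group, had the most muscle signal of it. All 5 were tested, with 0 higher and 1 lower, against 14.9% and 27.9% of all tested. The lower one, miR-1a-3p, the main miRNA of striated muscle, had a difference of -1.83 ± 0.63 (SE, limma adjusted p = 0.0451), with overlapping groups. It kept its side of the threshold in 10 of 29 alternatives and lost it without any 1 of NcstnΔKC 2, 3 and 4 and normal 2, 3 and 4. The other 4 did not pass, miR-133a-3p (-1.73, adjusted p = 0.0518), miR-133b-3p (-1.69, 0.0557), miR-133a-5p (-1.84, 0.0575) and miR-206-3p (-1.03, 0.283). Without NcstnΔKC 1 and normal 1, the arrays that depart most from their groups in the muscle sum, the difference of miR-21a-5p was 2.68. The arrays left then do not overlap in muscle signal, at 6.43 to 13.2 on NcstnΔKC against 50.9 to 84.6 on normal arrays. This removal does not even out the muscle signal, and its part in the difference was not tested.

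Of the 8 fibroblast and smooth muscle miRNAs 7 were tested, 3 higher and 1 lower (against 14.9% and 27.9% of all tested), and the sum of the 8 was 18.5 to 26.7 on NcstnΔKC and 16.3 to 18.3 on normal arrays. miR-214-3p of that list was 2.31-fold higher (limma adjusted p = 0.00404), and the others past the threshold, named after their values were seen, were miR-199a-3p and miR-199a-5p (higher) and miR-145a-5p (lower). miR-145a-5p was detected on 1 of 4 NcstnΔKC and 4 of 4 normal arrays, so it entered the fit only through normal skin, where it was higher. It had 2 values at the floor, and its groups overlapped. The remaining tested members, miR-143-3p (-0.52, adjusted p = 0.197), miR-199b-5p (-0.086, adjusted p = 0.715) and miR-29a-3p (0.067, adjusted p = 0.717), did not pass. The 8 epithelial miRNAs were all tested, with 0 higher and 5 lower (both arms of miR-203, miR-200a-3p, miR-200b-3p and miR-429-3p), against 27.9% lower of all tested. The other 3, miR-205-5p (0.47), miR-141-3p (0.30, adjusted p = 0.138) and miR-200c-3p (0.12, adjusted p = 0.618), had positive differences that did not pass. The 8 summed to 22.9 to 30.5 on NcstnΔKC and 22.8 to 27.7 on normal arrays. miR-429-3p, of the miR-200 family, had a difference of -0.81 ± 0.16 (adjusted p = 0.00466), which a percentile over all probes turned to 0.056. Endothelial miR-126a-3p did not pass (0.15 ± 0.14, adjusted p = 0.392). Of 3 red cell miRNAs 2 were tested, 0 higher and 1 lower. The one that did not pass, miR-451a, had a difference of 0.53 ± 0.49 (adjusted p = 0.392), and miR-486a-5p had a difference of -1.91 ± 0.54 (adjusted p = 0.0229). miR-486a-5p was detected on 1 of 4 NcstnΔKC and 4 of 4 normal arrays, with 2 values at the floor and overlapping groups. It kept its side of the threshold in 11 of 28 alternatives, and lost it without any 1 of NcstnΔKC 2, 3 and 4 and normal 3 and 4. The part of these cells in the difference of miR-21a was not tested.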

How the data were processed

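Total RNA of 4 NcstnΔKC and 4 normal skin samples was labelled with Cy3 and hybridised to 1 array each, per the labels. Per the file headers, Agilent Feature Extraction 10.7.1.1 read the images and deposited a processed intensity per spot after subtraction of a fitted background surface, with no normalization between arrays, and the array design refers to mm9. The deposited series matrix holds log2 values made by steps not given in the sources used here. Because the files' mm9 positions list the arms in the opposite order to RefSeq, only RefSeq positions on GRCm38.p6 are printed.

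Control and outlier spots were left out, spots averaged per probe, probe means scaled to the 75th percentile of the 301 probes detected on all arrays, summed per miRNA, floored at 0.0318 (log2 -4.97) and log2 transformed. For the floor, the dimmest detected miRNA of each array was taken and the median of these 8 values used, and 18 of the 222 tested miRNAs had a value at it. The fit used lmFit and eBayes of limma 3.58.1 (R 4.3.3) with group as the only term. The prior had 2.46 degrees of freedom. P-values were adjusted after Benjamini and Hochberg over all tested miRNAs, and the fit was tested on simulated data. For single values an exact permutation test was used, two-sided, with 70 labelings. Differences are NcstnΔKC minus normal.

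Named were both arms and their probes, the relatives on the array, the members of the inflammation-induced and hyperplastic skin lists past the threshold and up to 4 others with the smallest p, the 5 nearest profiles under each centring, and the member of each cell type list with the smallest p. The members and lists were chosen with earlier results of these data known. Alternatives covered scaling, background correction, probe summary, floor, filters, detection call, model and left-out arrays. Their number limits the precision.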

Additional observations from a re-analysis of the deposited data

Results flagged for a closer look

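Within groups of 4, a single array stood apart in 7 of the 68 groups of values checked, by Dixon's test at its 95% level. Chance alone gives about 1 in 20 for independent groups, but that rate cannot be set against this count. The groups share the same arrays, and some miRNAs were named because their profiles follow that of miR-21a-5p. On NcstnΔKC 1 the level of miR-21a-5p was 4.30, far under the other NcstnΔKC arrays. The same array was the lowest of its group for miR-146b-5p (-1.76), miR-511-3p (-1.95), miR-362-3p (-2.58) and miR-20a-5p (0.45), and the highest for miR-146a-5p (-1.27), all on the log2 scale. miR-362-3p and miR-20a-5p were named only for profiles near that of miR-21a-5p, a choice that favours a low value on NcstnΔKC 1. miR-146b-5p and miR-511-3p were also among the nearest profiles, though they belong to the marker lists too. For miR-21b, which was detected on no array, NcstnΔKC 3 lay apart with a summed intensity of 29.3.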

How the results depend on the processing

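The difference of miR-21a-5p kept its direction and passed the threshold in all 30 alternatives, between 2.21 and 3.38, with adjusted p from 3.51e-06 to 0.0207. Leaving out single arrays gave 2.43 to 2.71. The 20-base probe ranged over 2.15 to 3.32 and the 19-base probe over 2.39 to 3.57 in 16 alternatives each, all past the threshold (2.37 to 2.65 and 2.61 to 2.90 without single arrays). The share ranged over 5.12 to 6.29 percentage points and the log2 probe ratio over -0.25 to -0.19 in 10 alternatives each, with exact p = 0.0286 throughout (5.12 to 6.29 and -0.25 to -0.22 without single arrays).

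miR-21a-3p depended on the setting. Its floored log2 difference of 0.15 did not pass, whereas normexp background correction gave 0.54 and the series matrix 0.33 (exact permutation p = 0.0286 each, and limma adjusted p = 0.0417 for the matrix fitted with no filter). Over 23 alternatives it ranged from 0 to 1.1, the highest in the software's totals (exact permutation p = 0.429). Without single arrays the floored difference was 0 to 0.20. The summed intensity differed by 57.1 to 81.7 units without single arrays, and without normal 1, 3 or 4 its exact p was 0.0571.

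Of all tested miRNAs 12 passed under a percentile over all probes, 58 in the software's totals, 61 with only miRNAs detected on all arrays, 19 with no filter, 149 with array weights (whose estimation stopped before convergence) and 1 against a 2-fold change, against 95 as reported. Without single arrays 59 to 94 passed, with 59 without NcstnΔKC 3. The inflammation-induced list had 1 higher member, miR-21a-5p itself, with no filter or against a 2-fold change, 5 with array weights, and 3 to 4 without single arrays. Signs turned for miR-203-3p (0.19), miR-99a-5p (0.15), miR-125b-5p (0.34), miR-378a-3p (0.18) and miR-429-3p (0.056) under a percentile over all probes, for miR-126a-3p with no scaling (-0.11) or spike-in scaling (-0.15), and for miR-155-5p (-1.12) and miR-532-5p (-2.04) in the software's totals. The cause was not tested.

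Replicate numbers did not pair the arrays (correlations of same-numbered deviations -0.44, 0.20, -0.26 and -0.23). With them as a replicate block miR-21a-5p stayed at 2.51 (adjusted p = 0.00685), its probes at 2.46 and 2.70 (0.00788 each), 71 miRNAs passed and 3 list members were higher. The difference between the arms was not run, since the 3p arm was at the floor on 7 arrays, and cyclic loess was not run for it. The 3p tests on intensities, the probe ratio, the alternative denominators of the share, the removal of 2 arrays together and of miR-223-3p from the white cell sum were chosen after seeing the data.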
